A study of Mus musculus with 6 samples.

Results

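The RNA-binding proteins that set muscle splicing patterns were examined in primary mouse myoblasts labelled WT or knockout for eIF5A, a translation factor that carries the polyamine-derived residue hypusine. The group holds 10 of the 54532 genes in the count table: Rbm24 with its paralog Rbm38, Rbm20, Celf1 and Celf2, Mbnl1, Mbnl2 and Mbnl3, and Rbfox1 and Rbfox2. These genes were chosen by name, with the difference between the groups already known for these libraries, so their differences are given as a description, and counts of calls among them stand only beside the share over all tested genes. All 10 passed the filter on low counts that left 14679 tested genes.

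Splicing regulators of this kind bind short motifs in pre-mRNA near alternative exons, and the position of the bound site decides whether the exon is kept or skipped. In muscle, RBM24 and RBM20 promote the exon choices of sarcomeric transcripts, MBNL proteins drive the adult pattern, CELF proteins oppose them at many exons, and RBFOX proteins bind a conserved motif in the introns beside regulated exons. Several also act on mature mRNA. RBM24 and RBM38 bind 3′ UTRs and change how stable or how well translated a message is, and the mRNA of Myog, the transcription factor that starts terminal myogenic differentiation, is a known target of RBM24.

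The cells came from hind-limb muscle of 3-week-old mice, were plated after enzymatic digestion and a cell strainer, received FGF at 10 µg/ml as the labels give it, and were collected on day 2. There were 3 libraries labelled WT and 3 labelled eIF5A knockout (KO). The sample labels name only these genotypes. The study describes the knockout mice, on a C57BL/6j background, as carrying a tamoxifen-induced deletion of a floxed eIF5A gene. The Cre is driven by the Pax7 gene (Pax7 CreERT2/+;eIF5A f/f). By that design, cells in which Pax7 was not active under tamoxifen would keep the gene. The study gives its controls elsewhere both as Pax7 CreERT2/+ and as Pax7 +/+;eIF5A f/f. For translational profiling of such myoblasts, the controls were WT littermates. How many mice or cultures stand behind a library is not given in the sources used here, and the errors below measure only the spread between these libraries.

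Total counts were between 16281216 and 17734551 per library, and mitochondrial transcripts took 5.75% of counts in WT replicate 1 against 2.11 to 3.50% in the other libraries. Eif5a, the targeted gene (chr11:69916714-69921958, minus strand), did not separate the groups. Its level was 1603, 986 and 1238 CPM (a count relative to the size of its library) in the WT libraries and 1364, 1459 and 1059 CPM in those labelled KO, a log2 fold change of 0.02 (95% confidence interval -0.51 to 0.55). The table counts whole genes and cannot show a deleted exon, so the labels were not borne out by this gene. Apart from these libraries, the study assessed the knockout in satellite cells of older mice by RT-qPCR and immunostaining, and judged it successful. Every direction below is that of libraries labelled KO against libraries labelled WT. The myoblast label was met by Myod1, the myoblast determination factor, at 222 FPKM, a level scaled to gene length and library size, in WT and 145 FPKM in the libraries labelled KO, and by Pax7, the satellite cell factor, at 5.05 and 1.80 FPKM. Genes of other cells were present too, such as the endothelial cadherin Cdh5 at 123 and 150 FPKM.

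Rbm24 stood apart from the other regulators. The gene lies at chr13:46418434-46431095 on the plus strand of mm10, has at most 4 exons and a single annotated coding transcript, and overlaps no other gene. Its level was 11.9, 35.6 and 18.4 CPM in WT replicates 1, 2 and 3, and 3.24, 2.25 and 2.32 CPM in replicates 1, 2 and 3 labelled KO. The groups did not overlap, the lowest WT library was far above the highest labelled KO, and WT replicate 2 was the highest of all. The means were 22.0 ± 12.3 and 2.61 ± 0.553 CPM (SD, n = 3 each), a ratio of 8.44 between WT and the libraries labelled KO, and the log2 fold change was -3.02 (SE 0.40, 95% interval -3.92 to -2.13). These levels rest on 184, 672 and 312 counts in WT and on 53, 38 and 41 counts in the libraries labelled KO. Of the 14679 tested genes, 2 had a lower log2 fold change, Lamb3 at -3.36 and C1qtnf3 at -3.03, named only because they mark that position. Without WT replicate 2 the log2 fold change of Rbm24 was -2.49, and without WT replicate 1 it was -3.31. In a culture of mixed cells, fewer cells of a type and less RNA per cell cannot be told apart.

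**Figure D1:**
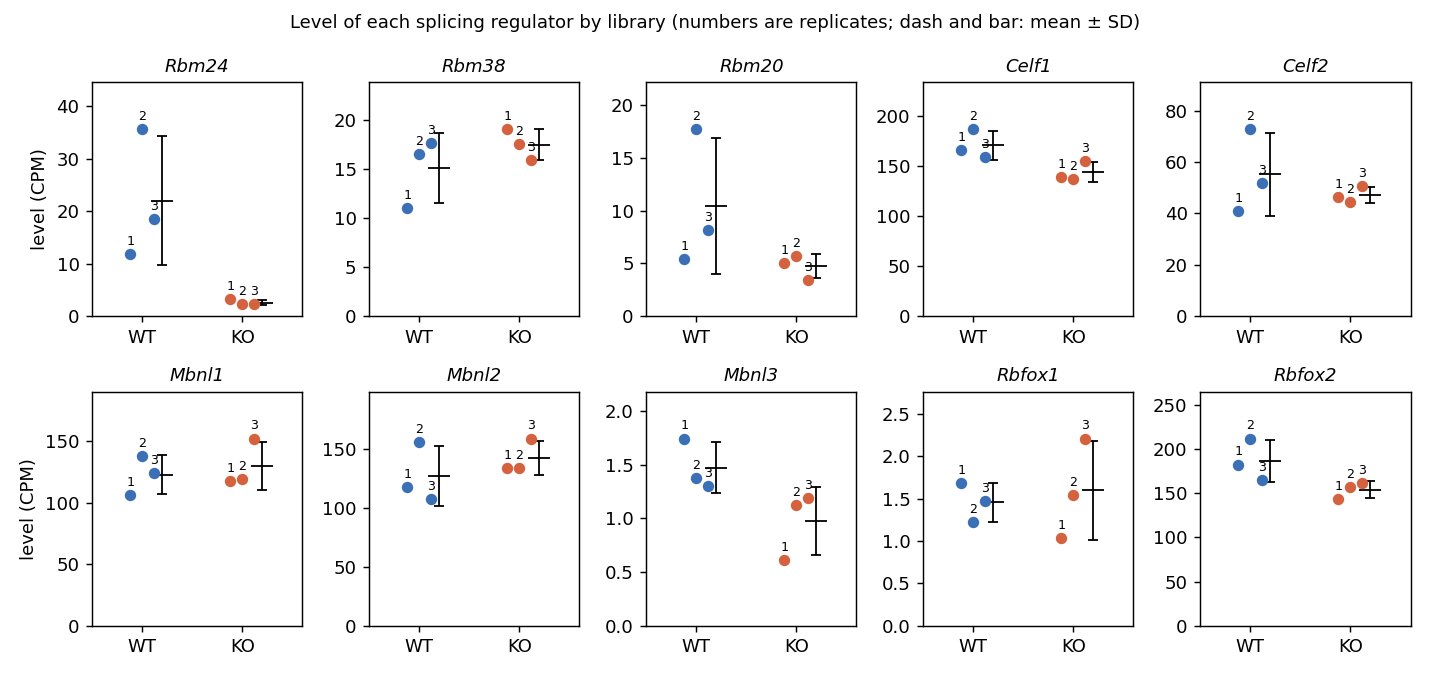
Level of each of the 10 splicing regulators in CPM (linear axis from 0, a separate scale for each gene) in the 3 WT libraries (blue) and the 3 libraries labelled KO (orange), where numbers are replicates and the dash and bar give the mean ± SD. The 3 libraries labelled KO lie between 2.25 and 3.24 CPM for Rbm24, below every WT library, and WT replicate 2 is the highest point for both Rbm24 and Rbm20.

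Rbm38, the closest relative of Rbm24, had no such difference. Its level was 11.1, 16.5 and 17.7 CPM in WT and 19.1, 17.5 and 15.9 CPM in the libraries labelled KO. The groups overlapped, and WT replicate 1 was the lowest library. The log2 fold change was 0.21 (95% interval -0.28 to 0.70), 0.04 without WT replicate 1 and 0.34 without WT replicate 3. The gene lies at chr2:173020498-173034734, plus strand.

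Both genes have a promoter in the RefSeq table (GRCm38.p6), and the bases before their start sites are shown because the paralogs had such unlike levels between the groups. Capitals mark E-boxes, CANNTG, the motif that myogenic bHLH factors such as MYOD1 and myogenin bind. The motif reads the same on both strands, and the matches shown do not overlap. The Rbm24 stretch is chr13:46418050-46418299 and the Rbm38 stretch chr2:173021652-173021901, both on the plus strand. That of Myog, a gene with a profile close but not closest to that of Rbm24 (below), is chr1:134289754-134290003, plus strand. The RefSeq starts are not the gene starts of the count table: that of Rbm24 lies 134 bases before, that of Rbm38 1404 bases after and that of Myog 15 bases after, so the Rbm38 stretch lies inside the gene as counted and bears on that start site alone.
Rbm24 promoter: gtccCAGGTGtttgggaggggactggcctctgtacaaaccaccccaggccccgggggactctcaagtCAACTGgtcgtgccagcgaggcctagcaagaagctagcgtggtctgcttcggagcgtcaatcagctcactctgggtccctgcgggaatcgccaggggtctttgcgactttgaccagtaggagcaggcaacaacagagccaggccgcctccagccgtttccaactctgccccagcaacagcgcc
Rbm38 promoter: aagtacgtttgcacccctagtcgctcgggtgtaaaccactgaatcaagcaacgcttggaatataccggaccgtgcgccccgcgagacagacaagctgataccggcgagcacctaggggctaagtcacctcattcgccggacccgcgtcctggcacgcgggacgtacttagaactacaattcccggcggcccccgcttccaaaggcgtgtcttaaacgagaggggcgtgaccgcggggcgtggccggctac
Myog promoter: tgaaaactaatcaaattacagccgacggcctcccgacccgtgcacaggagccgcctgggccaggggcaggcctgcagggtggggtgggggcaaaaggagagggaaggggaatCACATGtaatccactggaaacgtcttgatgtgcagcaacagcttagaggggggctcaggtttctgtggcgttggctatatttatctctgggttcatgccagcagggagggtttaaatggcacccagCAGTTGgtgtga
The Rbm24 stretch held 2 E-boxes, CAGGTG at 246 and CAACTG at 183 bases before the start. The Rbm38 stretch, before this internal start, held 0, and that of Myog held CACATG and CAGTTG at 138 and 12 bases before its start. E-boxes are common: 66.2% of 32851 RefSeq promoter stretches of 250 bases held at least 1. Promoters were matched for 8 of the 10 regulators, and 7 of their 14 start sites, in 4 genes, held the motif. A match is a string of letters, and binding was not measured here.

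Because 2 paralogs with a shared binding preference differ in level, their balance was followed per length. In FPKM, Rbm24 made up 46.9, 63.9 and 46.1% of the summed level of Rbm24 and Rbm38 in WT, and 12.3, 9.54 and 10.7% in the libraries labelled KO. The share was 52.3 ± 10.1% against 10.8 ± 1.36% (SD, n = 3 each), so that Rbm24 was the more abundant in WT replicate 2, Rbm38 by a small margin in the other WT libraries, and Rbm38 in every library labelled KO. The summed level was 7.15, 15.8 and 11.4 FPKM in WT and 7.51, 6.71 and 6.19 FPKM in the libraries labelled KO, and these ranges overlapped, since WT replicate 1 lay below the replicate 1 labelled KO.

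**Figure D2:**
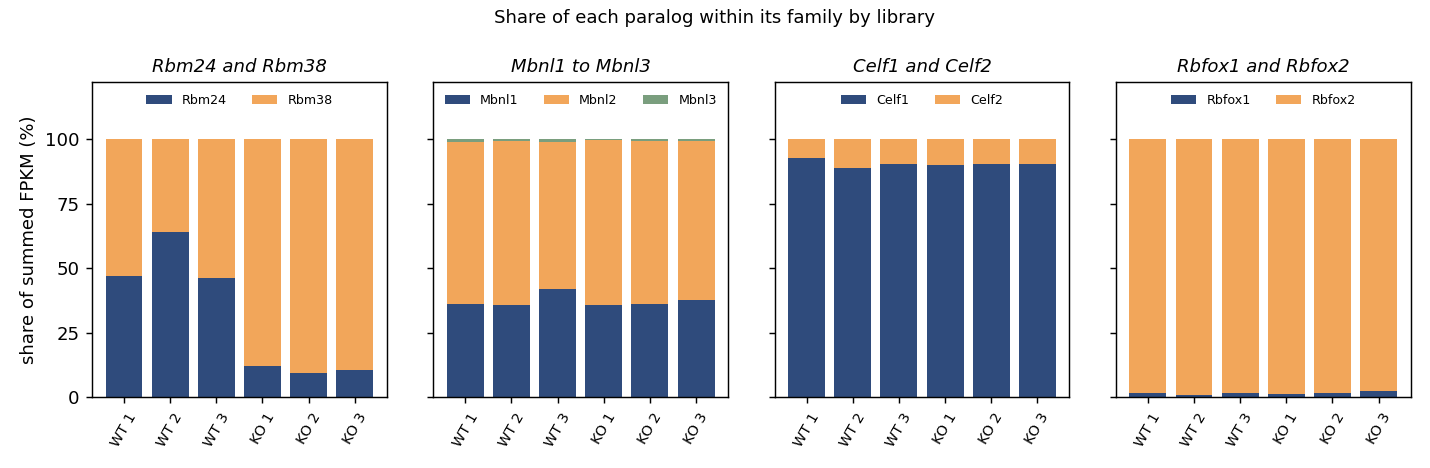
Share of each paralog in the summed FPKM of its family (%) in each of the 6 libraries, as stacked bars, with no averaging. Rbm24 takes 46.1 to 63.9% of the first family in WT and 9.54 to 12.3% in the libraries labelled KO, while Mbnl1 takes 35.8 to 42.1% of its family over the 6 libraries.

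Rbm20, which represses exons of the titin gene Ttn in striated muscle, had the second-largest difference of the group, but its libraries overlapped. Its level was 5.43, 17.7 and 8.15 CPM in WT and 5.08, 5.68 and 3.46 CPM in the libraries labelled KO. WT replicate 2 was far above every other library, and WT replicate 1 lay within the range of the libraries labelled KO. The means were 10.4 ± 6.45 and 4.74 ± 1.15 CPM, and the log2 fold change was -1.12 (SE 0.41, 95% interval -2.05 to -0.20). It was -0.51 without WT replicate 2 and -1.42 without WT replicate 1. Across all tested genes, 1.14% had a lower value than Rbm20. The gene lies at chr19:53677306-53867080, plus strand, and its levels rest on 61 to 334 counts.

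WT replicate 2 was the highest WT library for 7 of the 10 regulators, and for 38.0% of all tested genes. The ratio of the highest to the lowest WT library was 3.00 for Rbm24 and 3.26 for Rbm20, against a median of 1.52 over all tested genes, and 7.45% and 5.87% of the tested genes had a larger ratio. Celf1 was the steadiest, with a ratio of 1.17.

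CELF1 and CELF2 bind GU-rich elements and keep many muscle exons in their embryonic form. Celf1 (chr2:90940382-91019497, plus strand) was at 166, 187 and 159 CPM in WT and 139, 137 and 155 CPM in the libraries labelled KO. The groups did not overlap, though WT replicate 3 and the replicate 3 labelled KO were close. The log2 fold change was -0.25 (95% interval -0.61 to 0.11). Celf2 (chr2:6539694-7509563, minus strand), a gene that spans 970 kb, was at 41.0, 72.8 and 51.9 CPM in WT and 46.4, 44.5 and 50.7 CPM in the libraries labelled KO, with overlapping groups and a log2 fold change of -0.23 (95% interval -0.72 to 0.27). That value became 0.02 without WT replicate 2 and -0.39 without WT replicate 1. Celf2 held 9.45 ± 1.91% of the summed CELF level in WT and 9.69 ± 0.124% in the libraries labelled KO.

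The muscleblind-like genes encode zinc finger proteins that bind structured pre-mRNA near alternative exons. Mbnl1 (chr3:60472830-60629750, plus strand) was at 107, 138 and 124 CPM in WT and 117, 119 and 152 CPM in the libraries labelled KO. Mbnl2 (chr14:120275669-120431697, plus strand) was at 118, 156 and 108 CPM in WT and 134, 134 and 159 CPM in the libraries labelled KO. Both overlapped between the groups. Their log2 fold changes were 0.08 (95% interval -0.33 to 0.49) and 0.16 (95% interval -0.26 to 0.59), and that of Mbnl1 turned to -0.05 without the replicate 3 labelled KO and ran up to 0.17 without WT replicate 2. That of Mbnl2 was 0.34 without WT replicate 2 and 0.06 without WT replicate 3. Mbnl3 (chrX:51117269-51206532, minus strand), which is linked to proliferating and regenerating muscle cells, was rare at 1.74, 1.38 and 1.30 CPM in WT and 0.612, 1.12 and 1.19 CPM in the libraries labelled KO. These are 27, 26 and 22 against 10, 19 and 21 counts, a log2 fold change of -0.54 with an interval of -1.33 to 0.26, and -0.31 without the replicate 1 labelled KO. Mbnl1, Mbnl2 and Mbnl3 made up 38.1, 60.9 and 0.994% of the family in WT and 36.5, 62.9 and 0.586% in the libraries labelled KO.

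The RBFOX genes differed mainly from each other. Rbfox2 (chr15:77078990-77307004, minus strand), which acts in myoblast fusion through exons of Mef2d, was at 183, 212 and 165 CPM in WT and 143, 157 and 162 CPM in the libraries labelled KO. Its groups did not overlap, by a margin of a few CPM, and the log2 fold change was -0.28 (95% interval -0.65 to 0.10), or -0.17 without WT replicate 2. Rbfox1 (chr16:5885355-7411526, plus strand), the form of adult muscle, heart and brain, was at 1.68, 1.22 and 1.48 CPM in WT and 1.04, 1.54 and 2.21 CPM in the libraries labelled KO, on 17 to 39 counts per library. Its log2 fold change was 0.13 (95% interval -0.67 to 0.92) and ran from -0.16 without the replicate 3 labelled KO to 0.35 without the replicate 1 labelled KO. Rbfox1 held 1.45% of the summed RBFOX level in WT and 1.86% in the libraries labelled KO.

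Set against all tested genes, the group gave these counts, from which nothing is read because the genes were chosen on this contrast. At an adjusted p under 0.05 in edgeR's quasi-likelihood test, 0 of the 10 regulators were called, where 0.0204% of tested genes were, DESeq2 called 1, where 0.33% were, and limma on log2(FPKM + 1) called 0, where 0% were. At an unadjusted p under 0.05 there were 2, against 6.76% of tested genes. The groups did not overlap for 4 regulators, Rbm24, Celf1, Mbnl3 and Rbfox2, against 12.5% of tested genes. All 4 were lower in the libraries labelled KO, which 6.83% of tested genes were, and 0 were higher, against 5.68%. A log2 fold change over 1 in size was found in 2 regulators and in 2.16% of tested genes. The median log2 fold change was -0.24 over the 10 regulators, with 4 positive and 6 negative. It was -0.01 over all tested genes, with 7097 positive and 7582 negative. Without WT replicate 2 the median of the 10 was -0.08, with 5 negative.

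**Figure D3:**
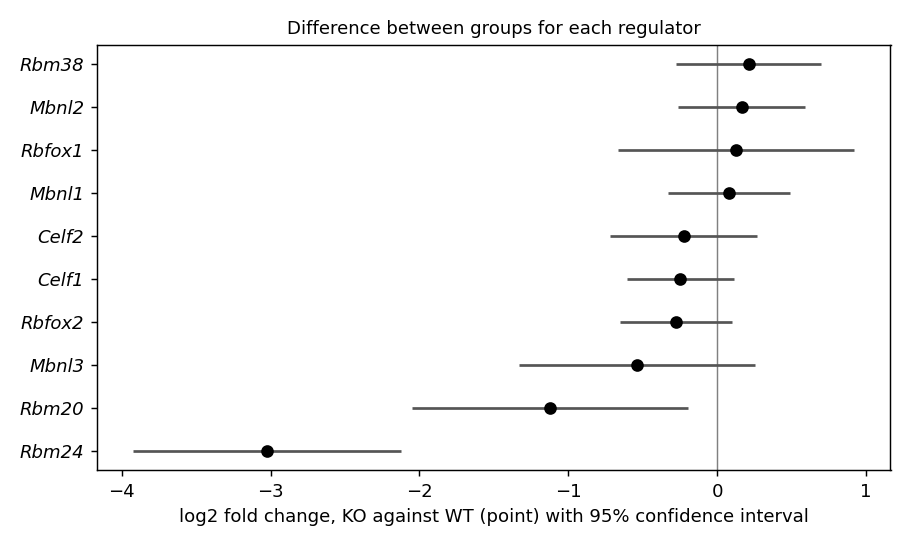
Log2 fold change of each regulator, libraries labelled KO against WT (points), with its 95% confidence interval (lines), from the edgeR fit over all tested genes. Rbm24 lies at -3.02 and Rbm20 at -1.12, and the points of the other 8 regulators lie between -0.54 and 0.21.

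Per length, the regulators covered a wide range. In WT the order of mean levels was Rbfox2 at 22.6 FPKM, Celf1 at 20.0, Mbnl2 at 10.5, Mbnl1 at 6.50, Rbm24 at 6.23, Rbm38 at 5.21, Celf2 at 2.11, Rbm20 at 1.52, Rbfox1 at 0.328 and Mbnl3 at 0.167 FPKM. Neighbours whose libraries overlapped, and which were therefore not separated, were Rbfox2 and Celf1, Mbnl1 and Rbm24, Rbm24 and Rbm38, and Celf2 and Rbm20. In the libraries labelled KO the order was the same but for Rbm24, which stood in the seventh place at 0.741 FPKM, below Celf2 at 1.81 and beside Rbm20 at 0.694 FPKM, with which it overlapped. The values of Rbm24 per library were 3.35, 10.1 and 5.24 FPKM in WT and 0.921, 0.641 and 0.663 FPKM in the libraries labelled KO.

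To see which genes had a profile like that of Rbm24, the log2 CPM profile of each gene over the 6 libraries was centred on its mean and the root mean square difference to Rbm24 was taken, over 11037 genes with a mean of at least 5 CPM. The 8 closest were E2f2 (0.297), Il18rap (0.344), Lrrn1 (0.345), Kcnf1 (0.377), Sox11 (0.494), Tnnt2 (0.516), Myog (0.540) and Otog (0.544, all on the log2 scale). E2f2 encodes a cell cycle transcription factor, Sox11 a developmental one, and Tnnt2 the troponin T of cardiac and embryonic muscle, whose alternative exon is a classic target of CELF and MBNL proteins. Myog was at 14.4, 76.3 and 32.2 CPM in WT and 8.93, 5.09 and 2.10 CPM in the libraries labelled KO. It shared the high WT replicate 2 with Rbm24, its groups did not overlap, and its log2 fold change was -2.91. E2f2 was at 16.5, 43.8 and 27.4 CPM in WT and 6.18, 5.33 and 3.91 CPM in the libraries labelled KO, the same order of the WT libraries again. Among genes of the myogenic list, Chrna1, a subunit of the muscle acetylcholine receptor, ranked 18, the fusion gene Mymk 23 and Pax7 25, while Myod1 ranked 140. Over the 22 genes of that list the ranks ran from 7 for Myog to 7278 for Sdc4, with 8 within the first 100 and 17 within the first 1000. A rank near 1000 marks little likeness, since the measure depends on the size of the differences too. Celf2 and Celf1, with log2 fold changes of only -0.23 and -0.25, ranked 887 and 1055. Of the other regulators Rbm20 came closest, at 0.989 and rank 50, and Rbm38 ranked 7625 at 1.61. These likenesses rest on the same 6 libraries, in which the markers of several cell types varied too (below), and were selected as the nearest values, so they carry no test.

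**Figure D4:**
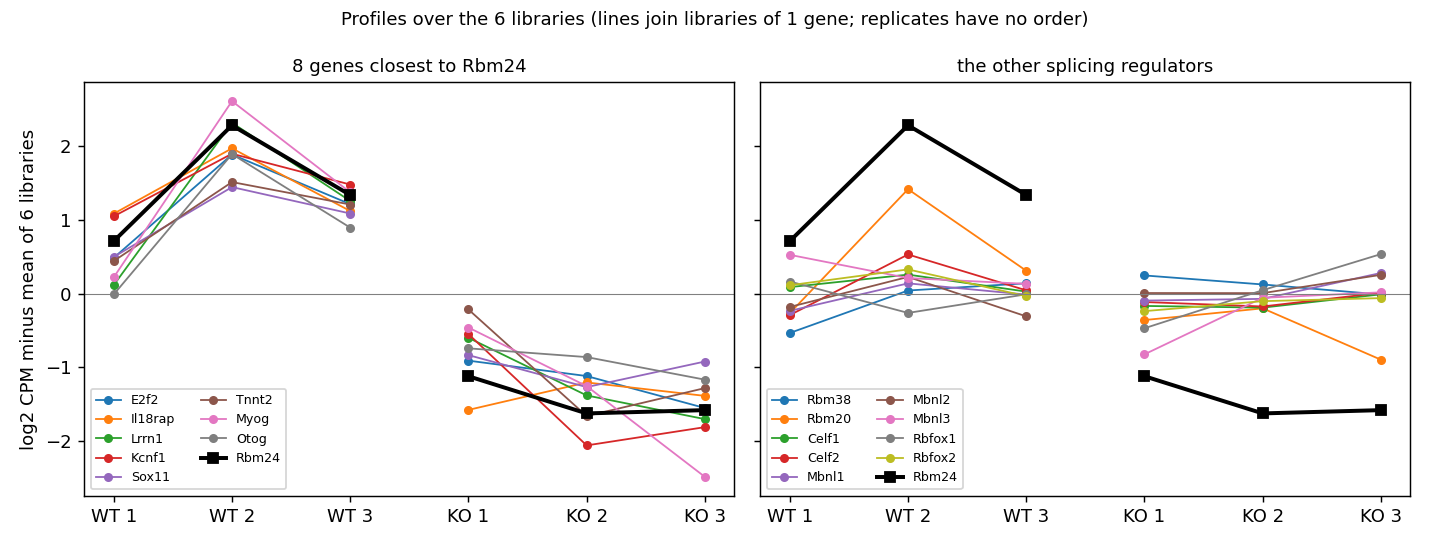
Centred log2 CPM (log2 CPM minus its mean over the 6 libraries) of Rbm24 (black squares) with the 8 closest genes (left) and with the other regulators (right), where lines join the libraries of a gene within a group. The closest genes share the high WT replicate 2 and the low libraries labelled KO, and of the other regulators only Rbm20 lies above 1 in WT replicate 2.

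Since RBM24 acts on the Myog message, the 3′ UTR of Myog is shown where it holds GTGTG, the DNA spelling of the motif linked to RBM24. The UTR of the annotated Myog transcript has 753 bases and holds the motif 4 times on the sense strand with no overlaps, each given with 30 bases in all and the motif in capitals (GENCODE release 21 annotation, chromosome 1, plus strand, positions counted from the first base of the UTR).
Myog 3′ UTR, motif at base 19: ctgtcaggctggGTGTGcatgtgagccccc
Myog 3′ UTR, motif at base 378: tgacctggacaaGTGTGcacatctgttcta
Myog 3′ UTR, motif at base 545: gtttattgttttGTGTGttgtttgtaaagc
Myog 3′ UTR, motif at base 660: taactaagcattGTGTGgttttgccaattt
Of the 12084 annotated 3′ UTRs at least as long, that of Myog included, 65.9% held the motif within the same length, so its presence is common. Binding and message stability were not measured here.

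Of 42 genes listed as spliced or bound by these proteins, 37 were tested. At an adjusted p under 0.05 edgeR called 0 of them (0.0204% of tested genes), limma on log2(FPKM + 1) called 0 (0%) and DESeq2 called 1 (0.33%). At an unadjusted p under 0.05, 1 was higher and 7 were lower in the libraries labelled KO, against 6.76% of all tested genes in either direction. The groups did not overlap for 1 that was higher, Pdlim7, against 5.68% of tested genes, and for 8 that were lower, against 6.83%. The median log2 fold change of the 37 was -0.04, close to that of all tested genes, and with a library left out it ran from -0.14 without the replicate 3 labelled KO to 0.04 without WT replicate 2. Gene counts measure the amount of a message and not which exons it holds, so splicing itself was not assessed.

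Tnnt2 was at 10.6, 22.4 and 18.1 CPM in WT and 6.67, 2.37 and 3.12 CPM in the libraries labelled KO, with a log2 fold change of -2.05 (SE 0.41, adjusted p = 0.32, edgeR). The giant sarcomeric protein gene Neb had a value of -1.66 (adjusted p = 0.50), from 3.55, 15.9 and 4.78 CPM in WT and 2.45, 2.25 and 2.72 CPM in the libraries labelled KO. WT replicate 2 again gave the highest level. Pdlim7, which encodes a protein of the Z-disc and actin filaments, was at 108, 117 and 125 CPM in WT and 157, 144 and 146 CPM in the libraries labelled KO, a log2 fold change of 0.35 (adjusted p = 0.74). Cdkn1a and Trp53, whose messages RBM38 binds, had values of 0.33 and 0.23 with overlapping groups.

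The wider set of splicing regulators was looked at in the same fit. Of 96 genes in 4 lists, 81 were tested, and edgeR, DESeq2 and limma each called 0 at an adjusted p under 0.05. Over all tested genes these methods called 0.0204%, 0.33% and 0%. At an unadjusted p under 0.05, 0 were higher and 5 were lower in the libraries labelled KO, close to the 6.76% of all tested genes in either direction. The groups did not overlap for 10, all lower, which 6.83% of tested genes were. The median log2 fold change was -0.08, and 57 of the 81 values were negative. That count was 56 with DESeq2 size factors, 65 with library size alone and 51 with limma. Over all 14679 tested genes, 7582 were negative, or 7524 with DESeq2 size factors, 8227 with library size alone and 7161 with limma on log2(FPKM + 1). With a library left out, the median ran from -0.16 without the replicate 3 labelled KO to -0.06 without the replicate 2 labelled KO, and the fewest negative values were 49 of 82, without WT replicate 3.

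SR proteins, which bind exonic enhancers, had the lowest median of these 4 lists, -0.25 over 14 tested genes, of which 13 were negative. Over all 14679 tested genes, 7582 were negative. The SR counts below stand beside the shares over all tested genes. Of the 14 SR genes, 3 had an unadjusted p under 0.05, against 6.76% of tested genes, and 5 were lower without overlap, against 6.83%. With library size alone or DESeq2 size factors 13 of the 14 were negative, with medians of -0.27 and -0.24, and 11 were negative with limma, with the replicate block and without WT replicate 2, WT replicate 3 or the replicate 2 labelled KO. Srsf7 was at 242, 155 and 198 CPM in WT and 130, 134 and 135 CPM in the libraries labelled KO, a log2 fold change of -0.58 (SE 0.19, adjusted p = 0.55, edgeR). Srsf10 had a value of -0.46 (adjusted p = 0.73). For both genes WT replicate 1, the library with the most mitochondrial counts, was the highest. Without WT replicate 1, 13 of the 14 SR genes were still negative, with a median of -0.22. The hnRNPs, which mostly repress exons, had a median of -0.15 over 22 genes, with 18 negative (17 with DESeq2 size factors, 18 with library size alone) and 3 that were lower without overlap, against 6.83% of tested genes. With a library left out, their median ran from -0.21 without the replicate 3 labelled KO to -0.08 without WT replicate 1, and it was -0.09 without WT replicate 3, with 15 negative. Hnrnpa1 had a value of -0.35 and Hnrnpdl one of -0.33 (adjusted p = 0.81 for both).

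The other tissue-enriched regulators had a median of -0.01 over 15 tested genes of 26. It was -0.08 without WT replicate 1, with 10 of 16 tested genes negative, and 0.03 without WT replicate 2, with 6 of 16. Msi2, an RNA-binding protein of stem cells, was at 38.9, 66.8 and 46.7 CPM in WT and 30.7, 28.6 and 30.7 CPM in the libraries labelled KO, a log2 fold change of -0.76 (SE 0.22, adjusted p = 0.48, edgeR). Ptbp2, the relative of the splicing repressor PTBP1, had a value of -0.54 (adjusted p = 0.68). The other RBM genes, 30 tested of 33, lay between -0.45 and 0.13 with a median of -0.06. Of them 18 were negative, or 24 with library size alone, against 7582 and 8227 of all 14679 tested genes. The groups overlapped for all 30, and did not overlap for 12.5% of all tested genes. The median moved from -0.14 without the replicate 3 labelled KO to -0.01 without the replicate 1 labelled KO.

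**Figure D5:**
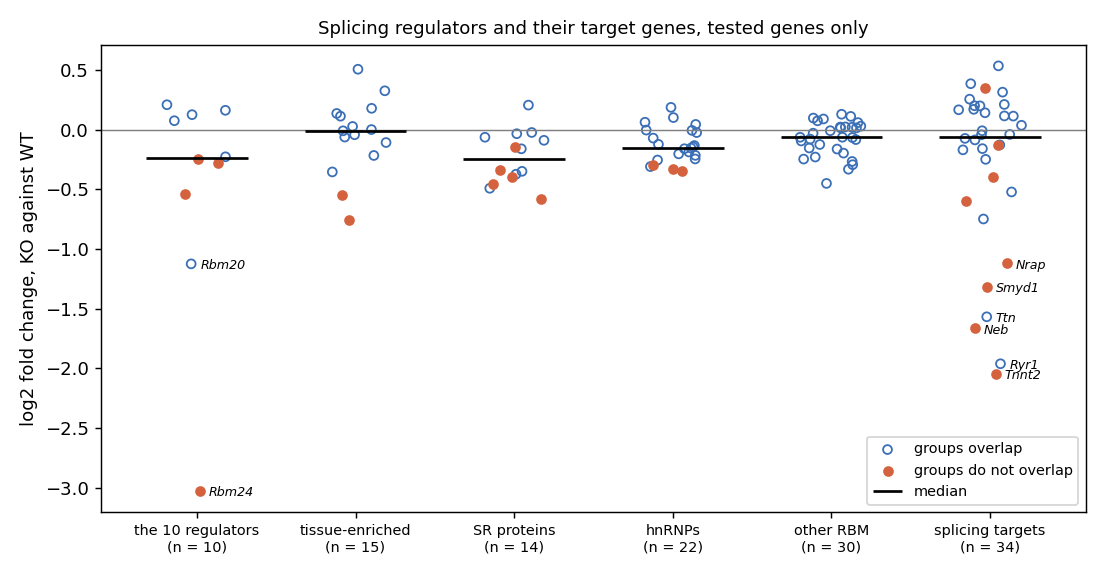
Log2 fold change, libraries labelled KO against WT, of each tested gene of the 10 regulators, 4 lists of other splicing regulators and the splicing targets; filled orange points are genes whose groups do not overlap, open blue points those that overlap, and black lines are medians. The medians lie between -0.25 and -0.01, and Rbm24 at -3.02 lies below every other gene plotted.

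Markers of the cell types that such a culture can hold varied between the libraries as well, and their part in the level of Rbm24 was not tested. Of all 14679 tested genes, 7582 had a negative log2 fold change and 7097 a positive one. In the myogenic list 20 of 22 tested genes were negative, with a median of -0.53. The values ran from -2.91 for Myog to 0.13 for Myf5. The median was -0.20, with 14 of 22 negative, without WT replicate 2, and -0.78 without WT replicate 1. The summed level of the list was 1599 to 2873 CPM in WT and 1338 to 2094 CPM in the libraries labelled KO, ranges that overlapped, and WT replicate 2 was the highest. Endothelial markers were positive in 10 of 10, with sums of 1435 to 3062 and 2804 to 4149 CPM. Mural cell markers were positive in 8 of 9 tested, with sums of 559 to 1033 and 939 to 1195 CPM, and Myh11, the smooth muscle myosin, was the only gene of any list past the threshold, at a log2 fold change of 1.51 (SE 0.17, adjusted p = 0.049, edgeR). That call was lost with DESeq2 size factors, with library size alone, with at least 10 counts in every library and with limma, where 0 genes were called higher, and also when any single library other than WT replicate 1 was left out. Macrophage markers were positive in 8 of 10 (66.3 to 139 and 67.8 to 175 CPM), glial and neural markers in 8 of 9 tested (176 to 301 and 275 to 326 CPM) and fibroblast markers in 4 of 10 (3170 to 3780 and 3136 to 3995 CPM). No marker of these lists was at 0 in all libraries. WT replicate 1 was the lowest library for the endothelial, mural and glial sums. With each library left out in turn, the median log2 fold change ran from 0.21 (without WT replicate 1) to 0.65 (without WT replicate 2) for endothelial, from 0.23 to 0.58 for mural and from -0.02 to 0.31 for glial and neural markers, at the same libraries. It ran from 0.06 (without the replicate 1 labelled KO) to 0.79 (without WT replicate 2) for macrophage markers, and from -0.20 (without the replicate 2 labelled KO) to 0.14 (without WT replicate 1) for fibroblast markers. By the rule for named genes these lists also gave Chrna1 at a log2 fold change of -1.62, the collagen genes Col1a1 at 0.72 and Col1a2 at 0.71, the endothelial genes Eng at 0.84 and Emcn at 0.51, the pericyte receptor gene Pdgfrb at 0.81, and the glial gene Sox10 at 0.42, none of which passed the threshold.

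Genes with a near-identical copy can share reads. A search of the annotated transcripts found no other gene with a stretch of at least 200 bases at 90% identity or more for any regulator except Rbm38. Rbm38 shares such a stretch with the overlapping gene Gm14453, which had at most 3 counts per library.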

How the data were processed

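Poly(A) selection, strand setting and aligner version are not given in the sources used here. The authors extracted total RNA with TRIzol, made libraries with an NEBNext Ultra kit and mapped reads to mm10 with HISAT, and they name DEGSeq2 for the read coverage of genes. The deposited counts are reads per gene, not normalized. The authors' FPKM values are per gene length and per a library scale that equalled their median-of-ratios size factor times the geometric mean of the totals.

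Genes with low counts were removed with filterByExpr in edgeR 4.0.16 (R 4.3.3), libraries were scaled by TMM, and the groups were compared with the quasi-likelihood F test (prior count 2) with Benjamini-Hochberg adjustment over all 14679 tested genes. CPM use the TMM factors, errors are SD unless named, the SE is the log2 fold change over the root of F, and intervals are at 95%. These intervals rest on the spread between libraries as the edgeR fit estimates it. The fit was also run on simulated counts with 200 changed genes, and the outcome is not given here. DESeq2 1.42.0 and limma 3.58.1 on log2(FPKM + 1) were alternatives, as were other scalings, filters, a replicate block and leaving out each library.

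The 10 regulators and all lists were chosen with earlier results of these data known. Genes named were all 10 regulators, in each other list those past the threshold and the 2 largest differences each way without overlap and with a mean of at least 5 CPM, the 8 genes closest to Rbm24, and Eif5a, except for 1 gene that is not reported here; Myod1, Pax7, Cdh5, Lamb3, C1qtnf3, Cdkn1a, Trp53, Myf5 and Mymk were added after their values were seen. The lists were myogenic, fibroblast, macrophage, endothelial, mural and glial or neural markers, tissue-enriched regulators, SR proteins, hnRNPs, other RBM genes, bound mRNAs and splicing targets. The methods state no pairing of libraries by replicate number. Correlations between deviations of same-numbered libraries were 0.084, -0.160 and 0.105. Those of differently numbered libraries ran from -0.267 to 0.269, so these values cannot decide whether the numbers pair libraries. Annotation came from GENCODE release 21, with 54409 of 54532 identifiers matched, promoters from RefSeq and the search for copies from blastn 2.17.0. The study's other assays were not analysed here.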

Additional observations from a re-analysis of the deposited data

How the results depend on the processing

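Rbm24 was lower in the libraries labelled KO in 14 of 14 alternatives. Its log2 fold change was between -3.31 and -2.49 when each library was left out in turn, and -1.95 with limma on log2(FPKM + 1), a scale that compresses low levels. Rbm20 was lower in all 14 too, from -1.42 to -0.51. The sign changed for Celf2 (without WT replicate 2), for Mbnl1 (without WT replicate 1 or the replicate 3 labelled KO) and for Rbfox1 (without the replicate 3 labelled KO). Mbnl3 moved to -0.07 with limma on log2(FPKM + 1). The number of genes called depended on the method. The edgeR fit called 1 higher and 2 lower, DESeq2 20 and 69, and edgeR with no filter on low counts 65 and 184. With DESeq2 size factors, library size alone, at least 10 counts in every library, or limma with either pseudocount (1 or 0.1), 0 were higher and 0 lower. Leaving out a library gave 0 to 8 higher and 0 to 48 lower, and the highest counts came without WT replicate 1. Of the 10 regulators, 1 was called by DESeq2 and 2 with no filter, and 0 to 1 with a library left out. Of the listed targets, 1 was called by DESeq2, 5 with no filter and 0 to 4 with a library left out. Over all tested genes the share called was 0.33% by DESeq2 (of 26954), 0.924% with no filter (of 26956), 0.372% without WT replicate 1 (of 15056), 0.163% with the replicate block (of 14679) and 0% without any other library. The cause was not tested. Taking the replicate number as a block, although no pairing by number is stated, gave 7 higher and 17 lower. With it, 1 regulator and 1 target were called, and the log2 fold change of Rbm24 was -2.89. The other splicing regulators had 0 called in every alternative. Counts of 10 to 39 per library limit what can be said of Mbnl3 and Rbfox1.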
